A study of Bos taurus with 6 samples.

Results

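Interferon response and antigen presentation genes were examined in chondrocytes of bovine articular cartilage kept as micromass cultures, that is, plated at high density so that they go on laying down cartilage matrix. A list of 41 genes was drawn up by name from the interferon pathway and the MHC class I loading machinery, and a gene was included where the array annotation gave its symbol, and no other, to at least 1 probe set. Of the 41 genes, 30 were measured in this way, by 43 probe sets, out of 9155 genes in all. The other 11, which were IRF1, IFNGR1, JAK2, IFIH1, RIGI, ADAR, IFIT1, IFIT3, OAS2, BST2 and SAMHD1, were not analysed here. RNA was hybridised to Affymetrix Bovine Genome arrays from 3 untreated cultures and from 3 cultures treated with 5 ng/ml TGF-β1, in both cases for 8 hours. The labels' treatment protocol gives vehicle to the untreated cultures, and both groups came from cartilage of cattle whose age, sex and breed are not given in the sources used here. The study grew cultures of 3 cows with and without TGF-β, and the arrays were paired by the replicate number of their labels, 1 to 3.

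Interferons are cytokines that cells release when they sense viral nucleic acid. Type I interferons act through the receptor chains IFNAR1 and IFNAR2, and interferon gamma through IFNGR1 and IFNGR2. The kinases bound to these receptors activate STAT factors, and a complex that holds STAT2 and IRF9 switches on most interferon-stimulated genes. Their products block viral replication, attach the ubiquitin-like protein ISG15 to other proteins, and raise the supply of peptides to MHC class I molecules through the immunoproteasome, the TAP transporter and tapasin. TGF-β is known as a restraining signal in many immune cells, and chondrocytes are resident matrix cells that carry interferon receptors.

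The values are log2 signals centred on each probe set's median over the 6 arrays, so they compare arrays and do not give the level of a gene, and genes cannot be ranked by abundance. Whether the cells express the defining markers of chondrocytes could not be checked on such values. Differences are TGF-β minus untreated and were tested with limma on the paired arrays, a model that holds a term for each replicate number (the paired fit). The words rose and fell are kept for genes with a p under 0.05 after Benjamini-Hochberg adjustment over the 9155 genes. The arrays of replicate 3 stood apart from the others on the first principal component, which held 56.4% of the variance, and in the median of 17 cell cycle genes, which was 2.25 and 1.99 log2 units there and -0.27 to -0.05 on the other 4 arrays. The TGF-β array of replicate 2 had a median of 1.53 log2 units over its 18 spike-in probe sets, against -0.17 to 0.06 on the other 5 arrays.

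PARP9 and IRF9 fell with TGF-β, and no gene of the 30 rose. PARP9 is an ADP-ribosyltransferase family member that works with the ubiquitin ligase DTX3L in the interferon response, and IRF9 is the DNA-binding subunit of the type I interferon transcription complex. The 2 genes that fell are 6.67% of the 30, and over all genes 4.58% fell and 2.24% rose, 6.82% in either direction, so the share is near the background. At an unadjusted p under 0.05, 8 of the 30 were lower and 0 higher, where 14.1% of all genes were lower and 8.41% higher. The mean difference lay below 0 in 22 of the 30 genes, against 51.9% of all genes, and the median difference was -0.08 log2 units over the 30 and -0.01 over all genes. In 9 genes all 3 pairs were lower (24.4% of all genes), and in 0 genes all 3 were higher (19.8% of all genes). The 9 were JAK1, IRF2, IRF3, IRF9, PARP9, PARP14, TAPBP, B2M and PSMB8. The median of the 30 differences was -0.14 in the pair of replicate 1, 0.02 in that of replicate 2 and -0.16 in that of replicate 3. Neither of these counts was tested as a property of the list. Without the replicate number in the model, limma called 0 of the 30 genes, with 4 at p under 0.05 before adjustment. The unpaired test that the study's methods name, which allows unequal variances, also called 0 of the 30 and 0 of all genes. By that test, 3 of the 30 and 406 of all genes had a p under 0.05 before adjustment.

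**Figure D1:**
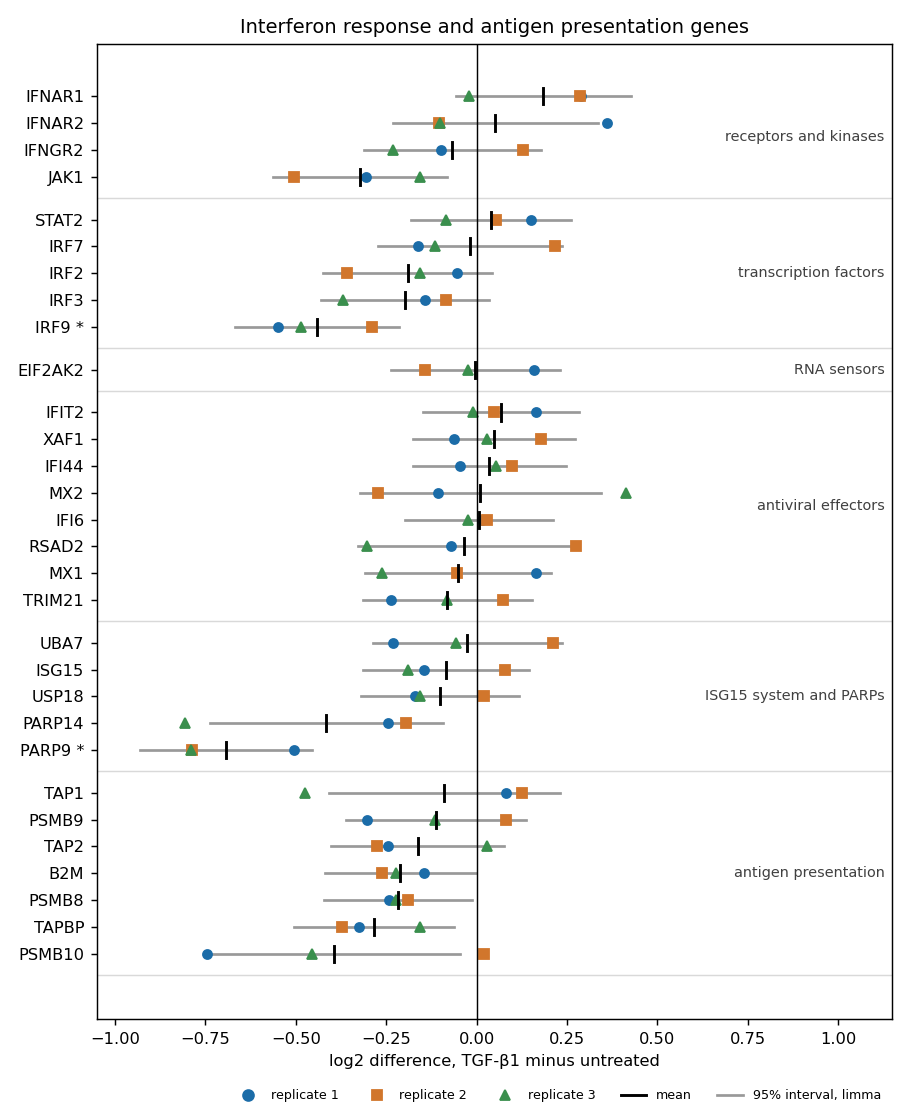
Log2 difference, TGF-β minus untreated, of the 30 interferon response and antigen presentation genes, ordered by role, with the 3 replicate differences (coloured points), their mean (black line) and the 95% interval of limma's paired fit (grey line). PARP9 and IRF9, marked with an asterisk for an adjusted p under 0.05, have all 3 points below 0, and so do the 7 antigen presentation genes' means.

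Among the genes around the ISG15 pathway, PARP9 had the largest difference of the 30 genes. ISG15 is conjugated to targets after activation by UBA7 and is removed by USP18, and PARP9 and PARP14 are interferon-induced members of the PARP family. PARP9 had values of 0.37, 0.14 and 0.49 on the untreated arrays of replicates 1, 2 and 3 and of -0.14, -0.65 and -0.30 on the TGF-β arrays. All 3 TGF-β arrays lay below all 3 untreated arrays. The log2 difference was -0.69 (SE 0.100, n = 3 pairs, 1.62-fold lower, adjusted p = 0.0115), with -0.50, -0.79 and -0.79 in the pairs. PARP14 had untreated values of 0.15, 0.09 and 0.42 and TGF-β values of -0.09, -0.10 and -0.39, which also did not overlap. Its difference of -0.42 log2 units (SE 0.136) did not pass the test (adjusted p = 0.129), and the pair of replicate 3, at -0.81, was far from the other pairs at -0.25 and -0.20. The ISG15 gene itself had a difference of -0.08 (95% interval -0.31 to 0.15), UBA7 one of -0.03 (-0.29 to 0.24) and USP18 one of -0.10 (-0.32 to 0.12), and none passed. PARP9 lost its call without replicate 2 (adjusted p = 0.0673), and over 9 alternative settings its adjusted p ran from 0.0116 to 0.999. It was called in 6 of the 9, with differences from -0.79 to -0.64. The value of 0.999 is from the unpaired test of the study's methods, whose lowest adjusted p over all genes was 0.679. That test also gave 0.999 for each of the other called genes below.

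DTX3L, the ubiquitin ligase that pairs with PARP9, was on a list of other genes of these pathways and fell as well. Its untreated values were 0.35, 0.12 and 0.43 and its TGF-β values -0.12, -0.52 and -0.43, with no overlap. The log2 difference was -0.66 (SE 0.105, n = 3 pairs, 1.58-fold lower, adjusted p = 0.0163). It lost its call without replicate 2 or 3 (adjusted p = 0.0828 and 0.0504, range over 9 alternatives 0.0165 to 0.999).

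Of the receptor chains and kinases, none of the 4 measured genes passed the test. The receptor genes had small differences of mixed direction: IFNAR1 was at 0.18 (95% interval -0.06 to 0.43), IFNAR2 at 0.05 (-0.23 to 0.34) and IFNGR2 at -0.07 (-0.31 to 0.18). IFNAR1 had untreated values of 0.13, -0.43 and 0.01 and TGF-β values of 0.42, -0.15 and -0.01, so that the groups overlapped. The 2 probe sets of IFNGR2 disagreed, at -0.34 and 0.21. JAK1, which encodes a kinase used by all of these receptors, had untreated values of 0.13, 0.12 and 0.08 and TGF-β values of -0.18, -0.38 and -0.08. All TGF-β arrays lay below the untreated ones, yet the difference of -0.32 log2 units (SE 0.102) had an adjusted p of 0.117. Groups that do not overlap were thus found in 4 of the 30 genes, JAK1, IRF9, PARP9 and PARP14, all of them lower, against 5.83% of all genes that were lower and 5.05% that were higher without overlap.

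Of 5 transcription factors, IRF9 fell and the other 4 did not pass. IRF9 had untreated values of 0.18, 0.18 and 0.11 and TGF-β values of -0.37, -0.11 and -0.38, with no overlap and with little spread among the untreated arrays. The log2 difference was -0.44 (SE 0.0960, n = 3 pairs, 1.36-fold lower, adjusted p = 0.0421). STAT2, its partner in the complex, was at 0.04 (95% interval -0.18 to 0.26). IRF3, the factor activated by RNA and DNA sensing, had untreated values of -0.17, 0.06 and 0.40 and TGF-β values of -0.31, -0.03 and 0.03, lower in each pair with overlapping groups, for a difference of -0.20 (SE 0.0981, adjusted p = 0.296). IRF2, which competes with IRF1 for DNA, was also lower in each pair (-0.19, adjusted p = 0.321), and IRF7, which amplifies type I interferon production, was at -0.02 with probe sets from -0.13 to 0.18. The call of IRF9 was the less firm of the 2: it was lost without any one of the 3 replicates (adjusted p = 0.0775 to 0.198), after quantile normalization (0.0678) and, at the same difference, when adjusted over probe sets (0.0538), and over 9 alternatives the adjusted p ran from 0.0399 to 0.999.

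The antiviral effector genes did not pass the test, and their differences were small. Over 8 such genes the differences ran from -0.08 for TRIM21, an intracellular antibody receptor, to 0.07 for IFIT2, which binds viral RNA, and 0 of them had the same direction in all 3 pairs. TRIM21 had untreated values of 0.26, -0.10 and 0.04 and TGF-β values of 0.02, -0.02 and -0.04. IFIT2 had untreated values of -0.04, -0.01 and 0.00 and TGF-β values of 0.13, 0.04 and 0.00. Both pairs of groups overlapped. The GTPase genes MX1 (-0.05) and MX2 (0.01), IFI6 (0.01), IFI44 (0.04), XAF1 (0.05) and RSAD2 (-0.03), which encodes viperin, lay between them. The 95% intervals of the 8 genes reached from -0.33 to 0.34 log2 units at most. MX1, MX2 and IFI6 changed sign under another scaling of the arrays, and so did the RNA-sensing kinase gene EIF2AK2, which was at 0.00 (SE 0.0983, interval -0.24 to 0.23). EIF2AK2 had untreated values of -0.19, 0.04 and 0.64 and TGF-β values of -0.04, -0.11 and 0.62. Its high values in replicate 3 came from 1 of its 2 probe sets, at 1.18 on both arrays.

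The genes of antigen presentation all had means below 0, and none passed the test. TAP1 and TAP2 carry peptides into the endoplasmic reticulum, tapasin (TAPBP) loads them, B2M is the light chain of the class I molecule, and PSMB8, PSMB9 and PSMB10 are the catalytic subunits of the immunoproteasome. The 7 differences ran from -0.39 for PSMB10 to -0.09 for TAP1, with a median of -0.21, and 4 of them, those of TAPBP, B2M, PSMB8 and PSMB10, had an unadjusted p under 0.05, where 51.9% of all genes had means below 0 and 14.1% were lower at that p. TAPBP had untreated values of 0.27, -0.31 and 0.21 and TGF-β values of -0.05, -0.68 and 0.05. Each pair was lower, by 0.32, 0.37 and 0.16 log2 units in size, while the groups overlapped because both arrays of replicate 2 were low. The mean difference was -0.28 (SE 0.0933, adjusted p = 0.131). PSMB10 had untreated values of 0.25, -0.13 and 0.56 and TGF-β values of -0.50, -0.11 and 0.11, with pair differences of -0.74, 0.02 and -0.46 and an adjusted p of 0.174. B2M was at -0.21 (SE 0.0883, adjusted p = 0.219), and its 3 probe sets lay between -0.24 and -0.18. PSMB8 was at -0.22 (SE 0.0868, adjusted p = 0.199), with pair differences of -0.24, -0.19 and -0.22. PSMB9 (-0.11) and TAP1 (-0.09) were of mixed direction over the pairs, as was TAP2 (-0.16). The constitutive proteasome subunits that the immunoproteasome subunits replace had differences of 0.07 for PSMB5, 0.11 for PSMB6 and -0.09 for PSMB7. The differences between the immune and the constitutive subunits were not tested.

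**Figure D2:**
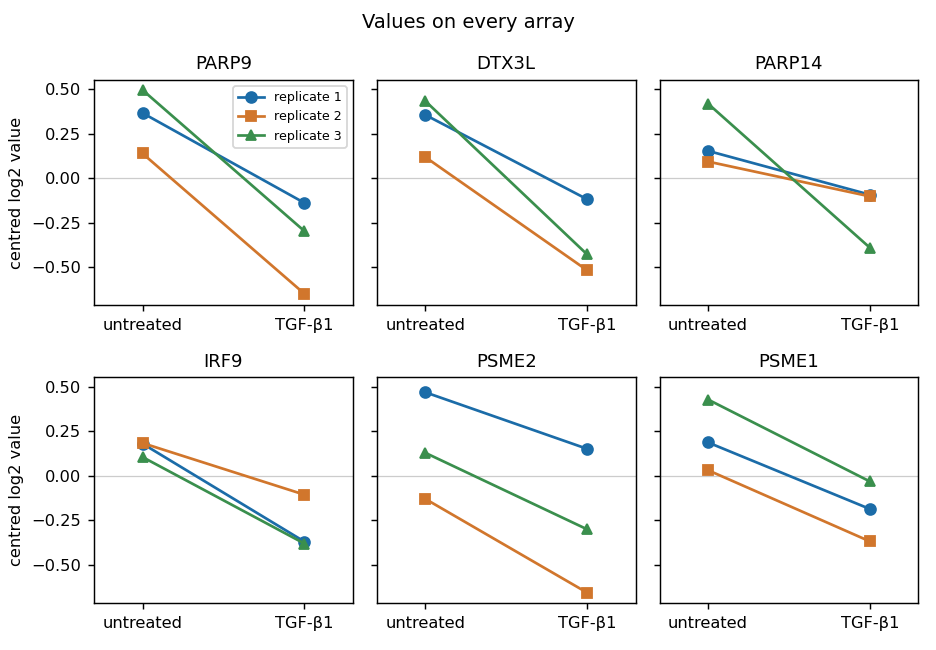
Centred log2 values of PARP9, DTX3L, PARP14, IRF9, PSME2 and PSME1 on the untreated (left) and TGF-β (right) array of each replicate, with lines joining arrays of the same number. Every line goes down from untreated to TGF-β, and in PARP9, DTX3L, PARP14, IRF9 and PSME1 the groups do not overlap.

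Other genes of the same pathways were taken from 4 further lists, which held 142 genes, 86 of them measured. Of these 86, 7 fell, 0 rose and 79 did not pass the test, against the 4.58% and 2.24% of all genes that fell and rose. At an unadjusted p under 0.05, limma put 17 lower and 5 higher, against 14.1% and 8.41% of all genes, and the median difference was -0.0032 log2 units. The list of sensors and interferon genes had 0 of 10 calls, with differences from -0.14 for IFNG to 0.21 for TANK, an adaptor of the kinases that act on IRF3. The list of further signalling genes had 0 of 8, with differences from -0.46 for PIAS1, a SUMO ligase that restrains cytokine signalling (adjusted p = 0.0697), to 0.35 for IL10RB, a chain of the receptors for interleukin 10 and type III interferons (adjusted p = 0.144).

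Of 39 other interferon-stimulated genes, 3 fell and 0 rose, against 4.58% and 2.24% of all genes. The 3 were DTX3L, TRIM34 and IFIT5. The list as a whole had 21 mean differences below 0 and 18 above, and a median of -0.0253 log2 units. TRIM34, a member of the tripartite motif family, had untreated values of 0.60, 0.50 and 0.12 and TGF-β values of -0.24, -0.12 and -0.42. The groups did not overlap, and the log2 difference was -0.67 (SE 0.0988, adjusted p = 0.0122). IFIT5, which binds RNA as IFIT2 does, had untreated values of 0.09, -0.09 and 0.67 and TGF-β values of -0.41, -0.96 and 0.29. Each pair was lower, the groups overlapped, and the difference was -0.58 (SE 0.117, adjusted p = 0.0338). TRIM34 and IFIT5 lost their calls without replicate 1 or 2 (adjusted p = 0.0591 to 0.116, range over 9 alternatives 0.0123 to 0.999), and IFIT5 also after quantile normalization (0.0757). The largest positive difference of a gene, 0.46 for TNFSF13B, the B cell survival factor BAFF, did not pass (adjusted p = 0.105). WARS1 was at 0.08 over its 4 probe sets, which disagreed. In the paired fit of single probe sets, 1 of the 4 was higher, at 1.41 (adjusted p = 0.00489).

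Of 29 other genes of antigen processing and presentation, 4 fell and 0 rose, against 4.58% and 2.24% of all genes. The list as a whole was split, with 16 mean differences below 0 and 13 above, and a median of -0.0162 log2 units. PSME1 and PSME2 encode the interferon-inducible proteasome activator subunits, IFI30 a lysosomal thiol reductase, and FCGRT the neonatal Fc receptor, an MHC class I-like protein. PSME1 had untreated values of 0.19, 0.03 and 0.43 and TGF-β values of -0.19, -0.37 and -0.03, a difference of -0.41 (SE 0.0875, adjusted p = 0.0395) with no overlap. PSME2 had untreated values of 0.47, -0.13 and 0.13 and TGF-β values of 0.15, -0.65 and -0.30, a difference of -0.42 (SE 0.0923, adjusted p = 0.0421) with groups that overlapped. Both activator genes were lower in each of the 3 pairs.

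FCGRT had untreated values of 0.24, -0.22 and 0.51 and TGF-β values of -0.18, -0.73 and 0.18, lower in each pair with overlapping groups, a difference of -0.42 (SE 0.0909, adjusted p = 0.0419). IFI30 had untreated values of 1.14, -0.88 and 0.22 and TGF-β values of 0.77, -1.53 and -0.22, a difference of -0.49 (SE 0.0977, adjusted p = 0.0331) beneath a far wider spread between replicates. Replicate 1 was likewise high in 2 genes known from myeloid cells, CD14 with 1.19 and 1.18 and CD68 with 1.38 and 1.47 on its untreated and TGF-β arrays, chosen after their values were seen. The median of all 9 measured myeloid markers was -0.0062 and 0.0307 on these arrays, so the list as a whole was not high there. Their part in the level of IFI30 was not tested. All 4 genes lost their calls without any one of the 3 replicates (adjusted p = 0.08 to 0.16), and also after quantile normalization (0.0559 to 0.0984). Over 9 alternatives, their adjusted p ran from 0.0334 to 0.999. Genes of MHC class II, which present peptides from outside the cell, had 0 calls, with differences from -0.39 for BOLA-DMA (adjusted p = 0.0836) to 0.26 for BOLA-DQB (adjusted p = 0.240).

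**Figure D3:**
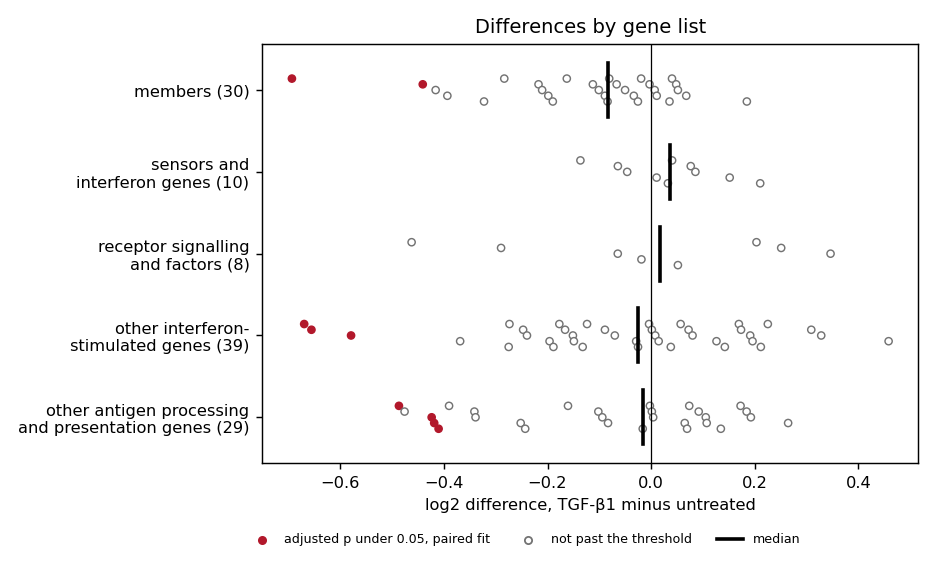
Log2 differences, TGF-β minus untreated, of the 30 genes (members) and of the 4 lists of other pathway genes, with the number measured in brackets; each circle is 1 gene, red where the adjusted p of the paired fit was under 0.05, and black lines are medians. All 9 red circles lie below -0.40.

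Some of the genes that fell lie next to one another on the chromosomes, as read from the order of protein-coding genes in the ARS-UCD2.0 annotation after the values were known. On chromosome 1, PARP9, DTX3L and PARP14 follow one another with 0 genes between them, and the annotated spans of PARP9 and DTX3L overlap. The next gene beyond PARP14, HSPBAP1, was at -0.31 (adjusted p = 0.154), and KPNA1, on the other side of PARP9, was at 0.16 (adjusted p = 0.439). Further out beyond KPNA1, FAM162A was at -0.33 (adjusted p = 0.171) and MIX23 at 0.27 (adjusted p = 0.165). On chromosome 10, IRF9, PSME2 and PSME1 lie in this order with 1 gene between each. RNF31, between IRF9 and PSME2, encodes a subunit of the linear ubiquitin ligase and was at -0.05 (adjusted p = 0.835), while EMC9, between PSME2 and PSME1, was not analysed here. On the other side of IRF9, CHMP4A, which is on none of these lists, was at -0.40 and lower in each pair (adjusted p = 0.094). TM9SF1 there was at -0.32 (adjusted p = 0.227) and IPO4 at 0.24 (adjusted p = 0.223). So 5 of the 9 genes that fell came from these 2 places, each measured by 1 probe set of its own, while PARP14 and RNF31 within them did not pass. The lists themselves hold many neighbouring genes. How often genes that fell lie near one another over all genes was not counted, so this count has no background beside it.

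**Figure D4:**
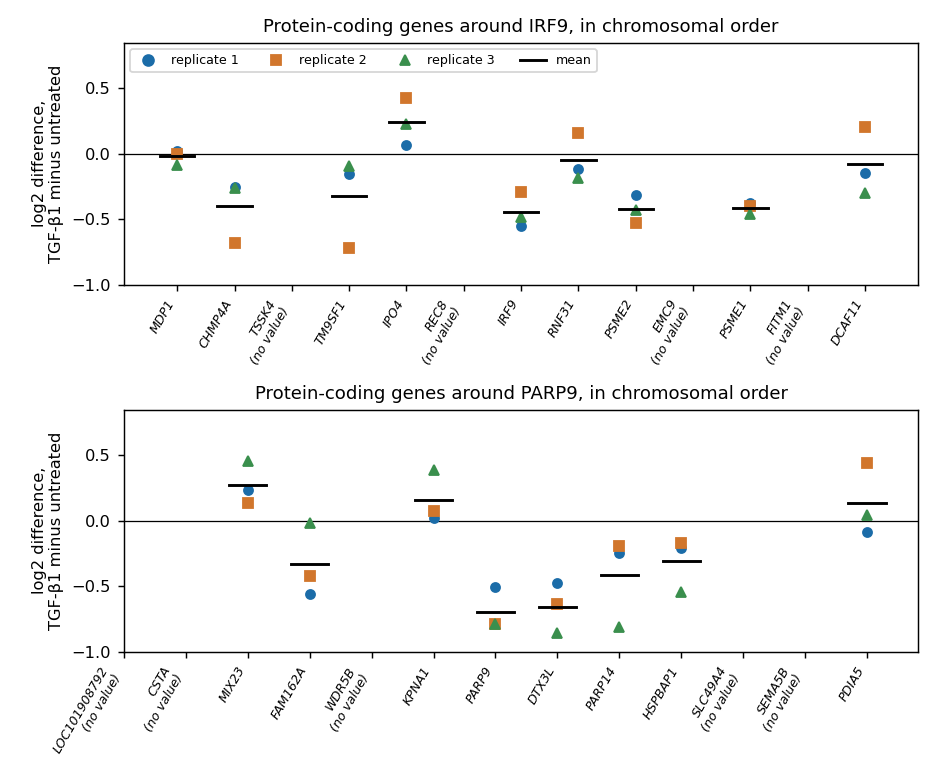
Log2 difference, TGF-β minus untreated, of the protein-coding genes on either side of IRF9 (top) and PARP9 (bottom), in chromosomal order and not to distance, with replicate differences as coloured points and means as black lines; genes marked as having no value were not analysed here. IRF9, PSME2 and PSME1 lie near -0.4, as does CHMP4A, which did not pass the test. RNF31, between IRF9 and PSME2, lies near 0, and PARP9 and DTX3L lie lower than the genes around them.

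Among other neighbouring genes of these lists, 2 more of the genes that fell, IFIT5 and TRIM34, lay near a gene that did not pass. IFNGR2, IFNAR1, IL10RB and IFNAR2 follow one another on chromosome 1 with differences of -0.07, 0.18, 0.35 and 0.05. TAP2, PSMB8, TAP1 and PSMB9, in the MHC region of chromosome 23, had -0.16, -0.22, -0.09 and -0.11, and none of these 8 genes passed. IFIT2, on chromosome 26, was at 0.07 where IFIT5, which lies beyond IFIT3 and 1 further gene, fell by 0.58 log2 units. TRIM5, on chromosome 15, was at -0.13 and TRIM34, with 1 gene between them, fell by 0.67 log2 units. Whether these neighbours differ from one another was not tested.

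In most of the 30 genes the range of the 3 replicate means was larger than the TGF-β difference. It was so in 25 of the 30 genes, against 84.3% of all genes. The exceptions were PARP9, IRF9, JAK1, PARP14 and IFIT2. The median range was 0.33 log2 units, against 0.35 over all genes. A range of 3 means and a difference of 2 means are unlike measures, and with noise alone the range tends to be the larger. The widest range, 1.45 log2 units, was that of ISG15, whose values were -0.60, -0.04 and 0.87 on the untreated arrays of replicates 1, 2 and 3 and -0.74, 0.04 and 0.69 on the TGF-β arrays. Each TGF-β array was thus close to its untreated partner and far from the other replicates. RSAD2, a gene often induced along with ISG15, was low in replicate 1 (-0.79 untreated and -0.86 with TGF-β) but not set apart in replicate 3 (0.20 and -0.11). PSMB9 was high in replicate 2 (0.73 and 0.81) and low in replicate 3 (-0.39 and -0.50). IFNAR2 was low in replicate 2 (-0.72 and -0.83). Of the 30 genes, 10 were highest in replicate 1, 9 in replicate 2 and 11 in replicate 3, close to the shares over all genes of 28.4%, 32.2% and 39.4%. MX1, IFI6 and EIF2AK2 were highest in replicate 3, as ISG15 was, while MX2, IFIT2 and XAF1 were lowest there. The ranges of IFIT2 and XAF1 were only 0.04 and 0.07 log2 units, below the SE of their TGF-β differences (0.0906 and 0.0942). Cell cycle genes were high in replicate 3. The median of 12 chondrocyte markers was high in replicate 2, at 0.70 untreated and 0.67 with TGF-β, against -0.35 to -0.05 on the other arrays. The part of either list in the levels of these genes was not tested.

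**Figure D5:**
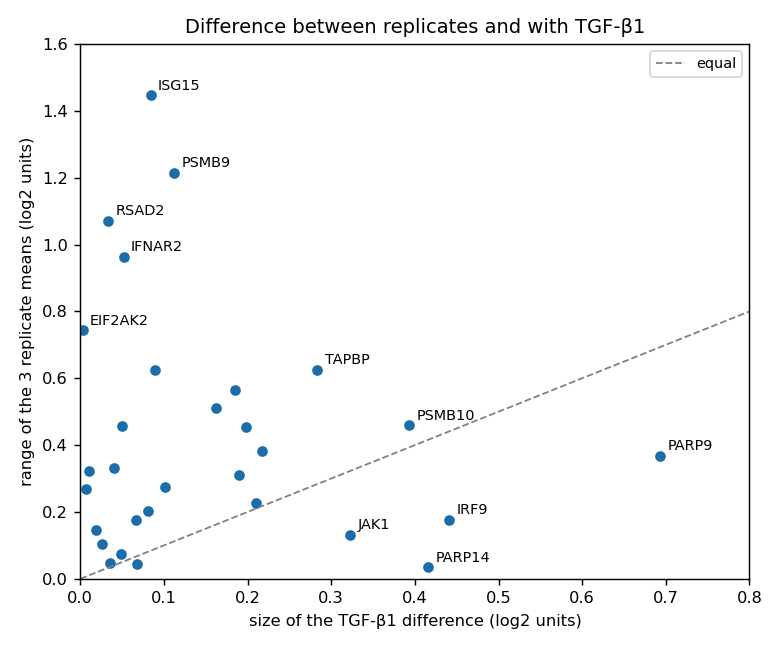
Range of the 3 replicate means against the size of the TGF-β difference, both in log2 units, for the 30 genes (points), with a dashed line where the 2 are equal. ISG15, PSMB9, RSAD2 and IFNAR2 lie far above the line, and PARP9, IRF9, JAK1, PARP14 and IFIT2 lie below it.

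Immune cells carry interferon and MHC genes, so their markers were read on the same arrays. In bulk RNA, fewer cells of a type and less RNA per cell cannot be told apart. Of 9 myeloid, 8 lymphoid and 8 endothelial markers, 0 were called by limma in the paired fit, against 6.82% of all genes in either direction. At an unadjusted p under 0.05 in that fit, 14.1% of all genes were lower and 8.41% higher. Of the markers, 1 myeloid one, CD68 (0.28, adjusted p = 0.164), was at that p, and 0 of the lymphoid and endothelial ones. Without the replicate number limma called 0 of these markers, but it then called 0 of all genes, so that count says nothing about the markers. The mean over the myeloid markers ran from -0.26 to 0.29 on the untreated and from -0.16 to 0.30 on the TGF-β arrays. Both upper values were those of replicate 1, where the medians of these markers were -0.0062 and 0.0307. The mean over the lymphoid markers ran from -0.12 to -0.01 and from -0.0001 to 0.19, the highest on the TGF-β array of replicate 2. The endothelial mean ran from -0.04 to -0.02 and from -0.09 to 0.09. PTPRC, which marks all leukocytes, was at 0.02 (SE 0.0865, adjusted p = 0.903). Of 12 chondrocyte markers, COMP rose (0.92), COL11A1 (-0.60) and CNMD (-0.59) fell, and 9 did not pass, where 6.82% of all genes were called. Of 17 cell cycle genes, 1 fell and 0 rose, with 7 lower at an unadjusted p under 0.05 in the paired fit. Of 5 fibroblast markers, 0 were called, with differences from -0.51 for COL3A1 to 0.85 for PDPN. The part of any of these in the falls of PARP9 and IRF9 was not tested.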

How the data were processed

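Total RNA of the 6 cultures (amplified in 2 cycles per the labels) was hybridised to 1 array each. The authors made the deposited log2 values from the cel files in GeneSpring with Robust Multichip Average at default settings (background correction, normalization across arrays, probe summary). The deposited values were centred per probe set (largest absolute median 5e-07), so levels and a filter on dim probe sets were lost. Of 24128 probe sets, 112 controls were left out; 13292 of the other 24016 had 1 symbol (13263 updated through their Entrez ID), 86 several and 10638 none. A probe set annotated as both OAS1Y and OAS2 was left out. Probe sets of a gene were averaged, giving 9155 genes; 23 of the 30 genes have 1 probe set. The members and gene lists were chosen with earlier results of these data known.

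2-sided tests were made with lmFit and eBayes of limma 3.58.1 under R 4.3.3, with Benjamini-Hochberg adjustment over all genes at 0.05; each SE is that of this fit, with variances moderated across genes. The replicate number was the block. Deviations from the group means of arrays with the same number had r = 0.740, 0.694 and 0.845 across probe sets, and -0.683 to 0.185 between other numbers; that the number stands for the cow is probable but not in the labels. No array was a copy of another. The fit was tested on simulated data with known changes, whose noise was drawn from the variance model of the fit itself. It called 32.8% of changes of 0.5 log2 units, 96.6% of those of 1 and 100% of those of 2. A gene that did not pass is thus not shown to be unchanged. Values on every array are given for those of the 30 genes that were called, had groups that did not overlap or had the 2 smallest p of their role, for the called genes of the 4 other pathway lists, and, chosen after their values were seen, for ISG15 and a few genes that differ between replicates. Alternatives were the fit without the block, without each replicate, a further quantile or median scaling, the median of probe sets, single probe sets, a robust prior, and the methods' unequal-variance test. With 3 arrays a group, their number limits the precision.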

Additional observations from a re-analysis of the deposited data

How the results depend on the processing

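With no replicate block, the paired call was lost for every gene: 0 of the 30 genes, 0 of the 86 other pathway genes and 0 of all genes were called, higher or lower, and the methods' t-test after Benjamini-Hochberg adjustment also called 0 of each. At a change of at least 2-fold and an unadjusted p under 0.05, that test gave 22 genes higher and 25 lower, with 0 of the 30 and 0 of the other pathway genes among them. Without 1 replicate, 0 to 1 of the 30 genes and 0 to 2 of the other pathway genes were called lower, 0 to 1 of the latter higher (TNFSF13B, without replicate 3), and 90 to 161 genes were higher and 112 to 270 lower in all. Quantile normalization called 1 of the 30 and 2 of the other pathway genes lower, and 127 genes higher and 196 lower in all. Tested by themselves, probe sets of 1 of the 30 genes and of 4 other pathway genes were lower, and of 2 other pathway genes higher: 1 of 4 of WARS1 (1.41), and 1 of PTPN2 (0.62). The median difference of the 30 genes lay between -0.16 and -0.05 in the 9 alternatives with a value per gene. PARP9 and IRF9 were below 0 in all 9 of these.

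Signs changed for genes near 0: after quantile normalization EIF2AK2 was at 0.0482, MX1 at 0.0132 and MX2 at -0.0107, and with array medians set to 0 IFI6 was at -0.0027. Without 1 replicate, IFNAR2 ran from -0.10 to 0.13, IFNGR2 from -0.16 to 0.0151, STAT2 from -0.0144 to 0.10, IRF7 from -0.14 to 0.0515, EIF2AK2 from -0.0834 to 0.0672, MX1 from -0.16 to 0.0548, MX2 from -0.19 to 0.15, IFI6 from -0.0043 to 0.0223, RSAD2 from -0.19 to 0.10, XAF1 from -0.0165 to 0.10, UBA7 from -0.14 to 0.0775 and TAP1 from -0.20 to 0.10. The filter on dim probe sets was not run, because centred values hold no level.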
